A study of Danio rerio with 6 samples.

Results

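Semaphorins, plexins and neuropilins are the ligands, receptors and co-receptors of one guidance system. Their genes were taken by symbol: sema3 to sema7, plxna to plxnd, nrp1 and nrp2. This gave 42 of the 30677 gene symbols in the deposited tables (94 of 54437 transcripts), namely 28 semaphorin ligands and 14 receptors. Their RNA was sequenced in fluorescent (GFP-positive) trunk cells, sorted from wild-type zebrafish embryos aged 14 hours post fertilisation whose brain and tail had been cut away. Each of 3 transgenic lines gave 2 libraries: TgBAC(nkx2.2a:memGFP), with a membrane form of GFP, TgBAC(olig2:GFP) and TgBAC(dbx1b:GFP). In each line the artificial chromosome of the named gene drives the reporter, so the nkx2.2a, olig2 and dbx1b sorts hold whatever trunk cells that reporter lights up. These genes mark the p3, motor neuron (pMN) and p0 progenitor domains of the ventral neural tube, from the floor plate upward. The labels do not say whether the libraries of a sort came from separate pools of embryos, so p-values measure only the spread between these libraries. Line, reporter and sort coincide, and their effects cannot be told apart.

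Semaphorins are secreted or membrane-bound proteins that steer axons, migrating cells and growing vessels, often by repulsion. Those of class 3 are secreted and bind a neuropilin, which has no signalling domain of its own and pairs with a plexin of the A type. Most membrane-bound semaphorins bind plexins directly. The cytoplasmic part of a plexin switches off small GTPases of the Ras and Rap type. In the developing spinal cord the system is known for keeping motor and sensory axons on their paths, and neuropilins also bind vascular endothelial growth factor (VEGF).

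The libraries held 3.25 to 6.93 M (1000000) mapped fragments, with the fewest in olig2 library 1 and the most in dbx1b library 2, and each reporter's own gene was highest in both libraries of its sort. Levels are given as counts per 1000000 mapped reads (CPM), and a gene with no read in a library may still have a level of up to 0.433 to 0.922 CPM there. All 10 listed neural progenitor markers were detected, at a summed 2805 and 2721 CPM in the nkx2.2a libraries, 2803 and 2197 CPM in the olig2 libraries and 2762 and 2434 CPM in the dbx1b libraries. This list includes nkx2.2a, olig2 and dbx1b, whose reporters defined the sorts, so the sums are no separate evidence of cell identity. Of each sum, cdh2 alone made up 745 to 1219 CPM. Markers of other tissues were present too. Floor plate markers (10 of 10 in the files, none at 0 in any sort) summed to 1283 and 1716 CPM in the nkx2.2a libraries, 467 and 440 CPM in the olig2 libraries and 641 and 695 CPM in the dbx1b libraries. Presomitic mesoderm and tailbud markers (8 of 9 in the files, none at 0 in any sort) summed to 267 and 443 CPM, 711 and 467 CPM, and 2188 and 1890 CPM in the same order. Of 9 brain markers, 6 were in the files, and none was at 0 in any sort. They summed to 354 and 542 CPM, 227 and 187 CPM, and 324 and 412 CPM, with the sum lowest in both olig2 libraries. Most of the dbx1b sums was egr2b, at 209 and 210 CPM, and pax2a, at 92.7 and 156 CPM, genes looked for after the values had been seen. Of the 6 markers, 2 had both olig2 libraries below all others (11.5% of all symbols tested) and 1, otx2, had both above (8.17%). Both nkx2.2a libraries lay above all others in 3, namely six3a, six3b and fezf2 (8.16%). Both dbx1b libraries did so in 1 (1915 of the 19129 symbols). RNA of genes on the brain list was thus present although the brain had been cut away. Whether it came from brain cells, and their part in the family levels, was not tested.

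Across the family, the olig2 sort stood lowest most often. In 14 of the 39 members tested, both olig2 libraries lay below all 4 other libraries, while 11.5% of all 19129 symbols tested did so. No member had both olig2 libraries above all others (8.17% of all symbols). This count was chosen after the values had been seen. The 14 members were the receptors nrp1a, nrp2a, nrp2b, plxna4, plxnb1b and plxnb2a, and the ligands sema3aa, sema3d, sema3ga, sema4c, sema4e, sema5a, sema5ba and sema6e. With no read, a gene may still have a level of up to 0.922 and 0.719 CPM in the olig2 libraries. In the nkx2.2a libraries sema5a was at 0.474 and 0.302 CPM, and plxna4 was at 0.474 CPM in library 1. Depth thus leaves the order of olig2 and these nkx2.2a libraries unresolved for both genes. Depth was 5.83 and 3.59 M fragments for nkx2.2a, 3.25 and 4.17 M for olig2, and 5.90 and 6.93 M for dbx1b, and its part in this count was not tested. Both nkx2.2a libraries lay above all others in 6 members (8.16% of all symbols) and below all others in 1 (6.46%). Both dbx1b libraries lay above all others in 6 members (1915 of the 19129 symbols) and below all others in 2 (7.35%).

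**Figure D1:**
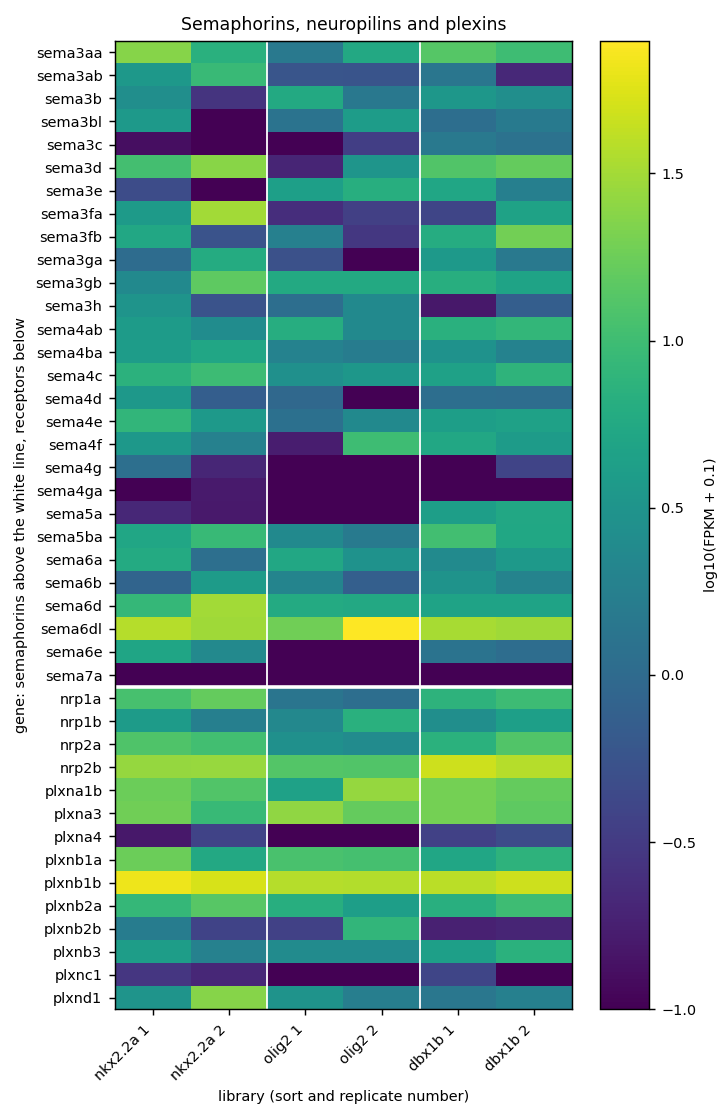
Level of all 42 genes in each library, as log10 of the deposited FPKM (a read count scaled by transcript length and library size) plus 0.1, with semaphorins above the white line and receptors below it. Among the brightest rows are plxnb1b, sema6dl and nrp2b, and sema7a is dark in all 6 libraries.

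Compared per length, mean levels over the 6 libraries ran from 0 FPKM for sema7a to 46.6 FPKM for plxnb1b. For this the authors' FPKM values, which scale reads by transcript length and by the mapped total, were summed over the transcripts of a gene. The plexin gene plxnb1b averaged 59.3 ± 9.40 FPKM in nkx2.2a cells, 37.0 ± 0.831 FPKM in olig2 cells and 43.5 ± 6.0 FPKM in dbx1b cells (SD, n = 2 each). The semaphorin gene sema6dl averaged 33.6 ± 5.10, 48.6 ± 42.5 and 31.7 ± 1.82 FPKM in the same order, and the neuropilin gene nrp2b 27.5 ± 0.454, 13.0 ± 0.342 and 42.0 ± 7.15 FPKM. These were the top 3 members by mean level in nkx2.2a and in dbx1b cells. In olig2 cells plxna3, a plexin of the A type, came next after sema6dl and plxnb1b, at 21.1 ± 6.60 FPKM. At the other end, sema7a had no read in any library, and sema4ga had 1 fragment in a single nkx2.2a library. The receptor gene plxnc1, whose mammalian product binds Sema7A, had 7, 0 and 9 fragments in the nkx2.2a, olig2 and dbx1b sorts, so neither side of that pair was above a trace at this depth. These 3 genes were the members that did not pass the filter on low counts.

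Summed over all 14 receptor genes, the level was 191 and 176 FPKM in the nkx2.2a libraries, 111 and 131 FPKM in the olig2 libraries and 160 and 169 FPKM in the dbx1b libraries. Over the 28 ligand genes it was 152 and 194 FPKM, 68.4 and 138 FPKM, and 138 and 143 FPKM in the same order. Both sums were lower in each olig2 library than in any other library, though for ligands olig2 library 2 and dbx1b library 1 were nearly level. The receptor share of the family sum was 55.7% and 47.6% for nkx2.2a, 61.9% and 48.7% for olig2, and 53.7% and 54.2% for dbx1b. The balance of receptors and ligands overlapped between all 3 sorts, with the widest spread between the olig2 libraries. Without the most abundant member, plxnb1b, the mean share was lower in all 3 sorts, at 42.0% in nkx2.2a cells, 46.2% in olig2 cells and 46.3% in dbx1b cells.

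By subfamily, neuropilins showed a gap between olig2 and the other sorts, with little spread within each sort. Their sum was 54.5 and 56.0 FPKM in the nkx2.2a libraries, 19.4 and 23.0 FPKM in the olig2 libraries and 63.9 and 63.5 FPKM in the dbx1b libraries. Class 3 semaphorins, the secreted ligands of neuropilins, summed to 59.3 and 92.8 FPKM, 21.9 and 29.5 FPKM, and 55.1 and 63.6 FPKM in the same order. The 2 class 5 genes summed to 5.13 and 9.0 FPKM, 2.25 and 1.40 FPKM, and 14.5 and 10.5 FPKM. Class 4 genes summed to 30.6 and 23.3 FPKM, 12.7 and 19.1 FPKM, and 24.5 and 27.0 FPKM. For these 4 subfamilies both olig2 libraries lay below all others. The 3 A-type plexin genes within the symbol rule did not show this, at 36.0 and 22.0 FPKM in the nkx2.2a libraries, 30.2 and 44.0 FPKM in the olig2 libraries and 39.3 and 31.6 FPKM in the dbx1b libraries. A-type genes listed under other names, given below, are not in these sums. For B-type plexins, the receptor subfamily with the highest sum, the olig2 and dbx1b libraries overlapped, at 97.3 and 74.3 FPKM, 58.3 and 62.0 FPKM, and 55.2 and 72.1 FPKM in the same order. The single D-type plexin gene also overlapped between olig2 and dbx1b, with nkx2.2a library 1 only just above them, at 3.08 and 23.1 FPKM, 2.99 and 1.61 FPKM, and 1.29 and 1.70 FPKM. Class 6 semaphorins also overlapped, with 57.1 and 68.5 FPKM, 31.5 and 87.7 FPKM, and 44.1 and 41.4 FPKM.

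**Figure D2:**
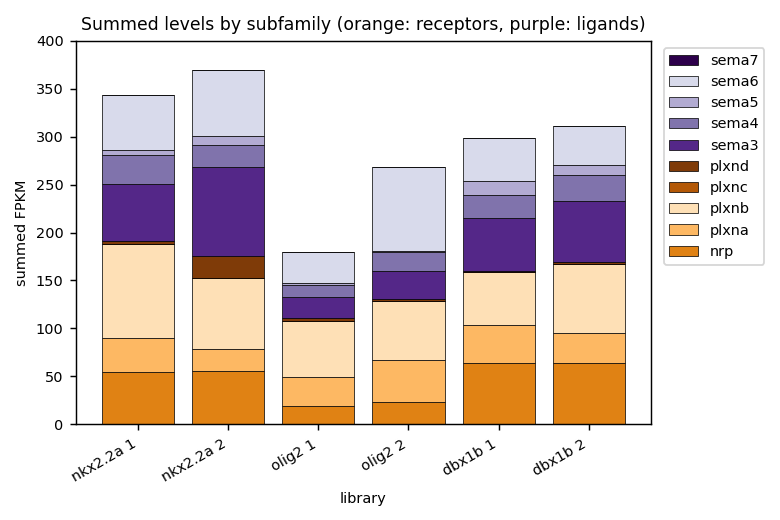
Summed FPKM of each subfamily per library, stacked, with receptors in orange and brown tones and ligands in purple tones. Both olig2 bars (179 and 268 FPKM in all) are shorter than the nkx2.2a bars (343 and 369) and the dbx1b bars (298 and 311), and the neuropilin segment shows the gap in both olig2 libraries.

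Each pair of sorts was then compared gene by gene with edgeR's quasi-likelihood test on the read counts, with values given as CPM after TMM scaling. With p adjusted over all symbols, 0 of 39 members passed in any of the 3 comparisons, where the background was 0% for nkx2.2a over olig2, 0.00523% (1 symbol) for nkx2.2a over dbx1b and 0% for olig2 over dbx1b. DESeq2 called more, 5 members in nkx2.2a over olig2 cells (3.02% of all symbols), 2 in nkx2.2a over dbx1b cells (1.96%) and 6 in olig2 over dbx1b cells (3.74%). In the first of these nrp1a, nrp2a, sema3fa and sema6e were higher and sema3e was lower. In the second plxnd1 was higher and sema5a lower, and in the last plxnb2b was higher and nrp1a, nrp2a, nrp2b, sema5a and sema6e were lower. An unadjusted p under 0.05 is used below only to describe. By it edgeR counted 13 of 39 members in nkx2.2a over olig2 cells, against 8.75% of all symbols: 12 were higher (6.12%) and 1 lower (2.62%). It counted 5 members in nkx2.2a over dbx1b cells, against 6.27%: 2 were higher (3.61%) and 3 lower (2.67%). In olig2 over dbx1b cells it counted 11 members, against 9.53%: 1 was higher (3.70%) and 10 were lower (5.83%). The first and last of these comparisons share the olig2 libraries and do not count as separate evidence. The median log2 fold change of the members was 1.1 in nkx2.2a over olig2 cells (1.08 with genes at 0 in a sort set to their bound), 0.27 in nkx2.2a over dbx1b cells and -0.86 in olig2 over dbx1b cells. The medians over all symbols were 0.05, -0.00 and -0.05. The fold change was above 0 in 26, 24 and 13 of the 39 members, where 51.5%, 49.7% and 48.0% of all symbols had such a value.

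The libraries of nkx2.2a and olig2 did not overlap for 20 members (35.8% of all symbols), with 19 higher in nkx2.2a (20.0%) and 1 lower (15.7%). Those of nkx2.2a and dbx1b did not overlap for 17 members (40.1%), with 8 higher in nkx2.2a (19.1%) and 9 lower (21.0%). Those of olig2 and dbx1b did not overlap for 23 members (43.7%), with 4 higher in olig2 (18.3%) and 19 lower (25.4%). Ligands had a median log2 fold change of 1.43, 0.32 and -0.96 in the 3 comparisons, and receptors of 0.69, 0.18 and -0.27.

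**Figure D3:**
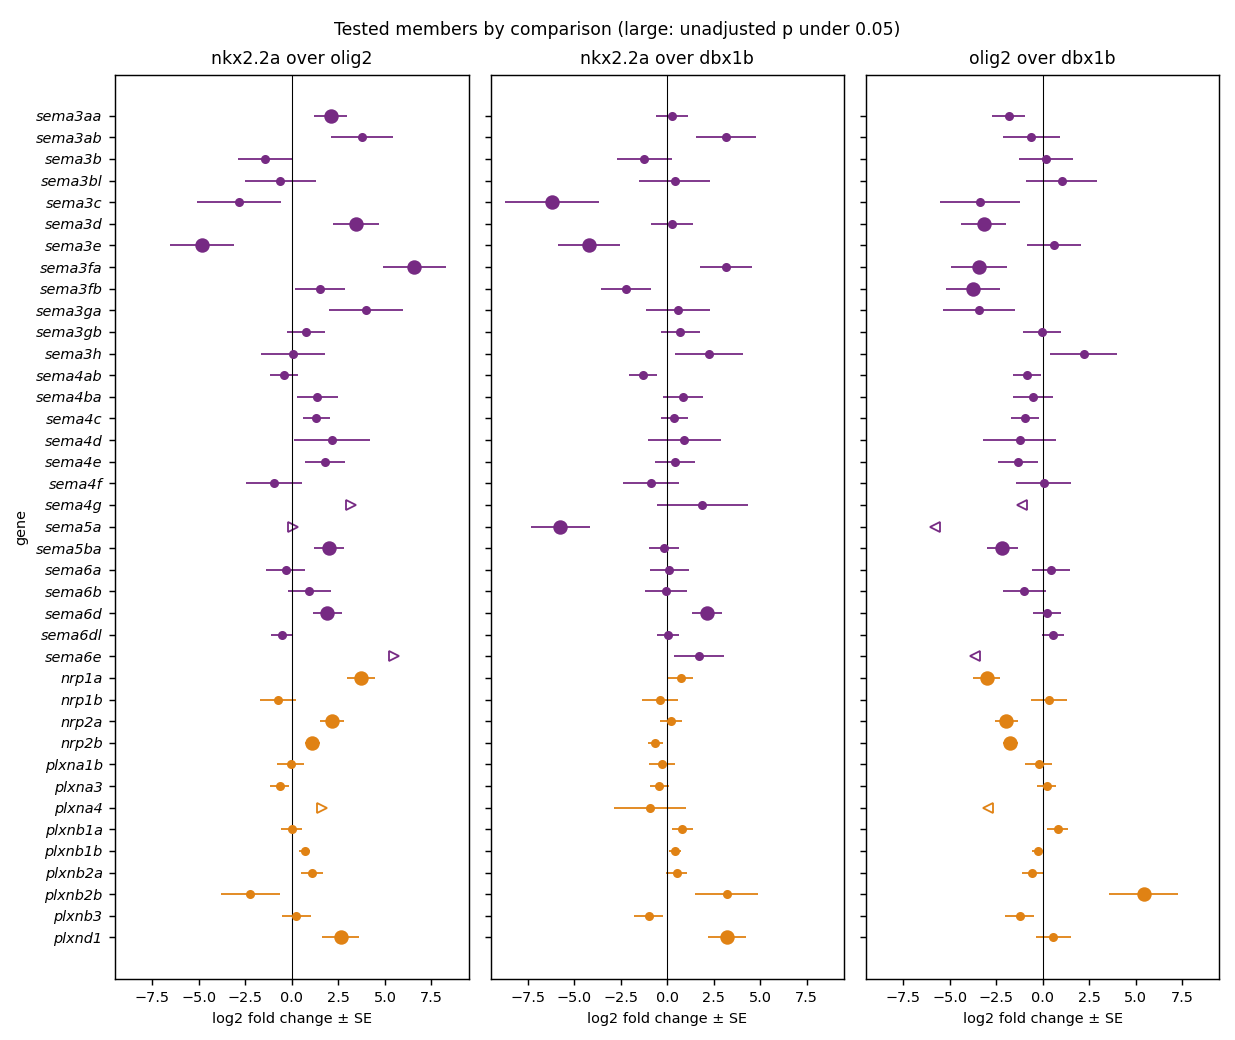
Log2 fold change ± SE of each of the 39 tested genes in the 3 comparisons (purple semaphorins, orange receptors), with large points at unadjusted p under 0.05 and open triangles for the lower bound of genes with no read in one of the sorts. More of the large points lie right of 0 in nkx2.2a over olig2 (12 of 13, counting the triangles of plxna4, sema5a and sema6e) and left of 0 in olig2 over dbx1b (10 of 11).

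The neuropilin genes encode the co-receptors that capture class 3 semaphorins and VEGF at the cell surface. Transcripts of nrp1a were at 43.4 and 74.1 CPM in the nkx2.2a libraries, 4.87 and 4.03 CPM in the olig2 libraries and 32.4 and 39.0 CPM in the dbx1b libraries. Both olig2 libraries were far below the other 4, and the nkx2.2a libraries were above the dbx1b libraries. The log2 fold change was 3.72 ± 0.75 (SE) for nkx2.2a over olig2 cells (edgeR unadjusted p = 0.000746, adjusted p = 0.386) and -3.00 ± 0.73 for olig2 over dbx1b cells (unadjusted p = 0.00251, adjusted p = 0.375). Between nkx2.2a and dbx1b cells it was 0.72 ± 0.67, with a 95% interval of -0.80 to 2.24. DESeq2 called both olig2 differences of nrp1a (adjusted p = 1.3e-05 and 0.00104), and over all alternatives the edgeR, limma and DESeq2 adjusted p ranged from 1.3e-05 to 0.926 in nkx2.2a over olig2 cells and from 0.00104 to 0.964 in olig2 over dbx1b cells.

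Transcripts of nrp2a were at 63.2 and 62.3 CPM in the nkx2.2a libraries, 15.2 and 13.0 CPM in the olig2 libraries and 40.7 and 69.8 CPM in the dbx1b libraries. The olig2 libraries were again the lowest, and those of the other sorts overlapped. The difference was 2.15 ± 0.62 in nkx2.2a over olig2 cells (edgeR unadjusted p = 0.00698, adjusted p = 0.535) and -1.97 ± 0.62 for olig2 over dbx1b cells (unadjusted p = 0.0109, adjusted p = 0.456). The most abundant neuropilin gene, nrp2b, was at 126 and 152 CPM in the nkx2.2a libraries, 66.0 and 63.5 CPM in the olig2 libraries and 252 and 182 CPM in the dbx1b libraries, so the 3 sorts did not overlap. The difference was 1.1 ± 0.40 in nkx2.2a over olig2 cells (unadjusted p = 0.0215, adjusted p = 0.554) and -1.74 ± 0.40 for olig2 over dbx1b cells (unadjusted p = 0.00184, adjusted p = 0.366). In nkx2.2a over dbx1b cells it was -0.64 ± 0.39, with an interval of -1.53 to 0.24.

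The fourth neuropilin gene did not share this order. Transcripts of nrp1b were at 16.7 and 8.77 CPM in the nkx2.2a libraries, 10.3 and 32.7 CPM in the olig2 libraries and 13.3 and 20.2 CPM in the dbx1b libraries, and all sorts overlapped. Of the summed FPKM of nrp1a and nrp1b, nrp1a made up 74.9% and 90.7% for nkx2.2a, 36.3% and 12.9% for olig2, and 74.0% and 69.0% for dbx1b. The nrp1b paralog was therefore the more abundant of the pair in both olig2 libraries and in no other library. Of nrp2a and nrp2b, the share of nrp2a stayed below that of nrp2b in all 6 libraries (12.8% to 31.4%).

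**Figure D4:**
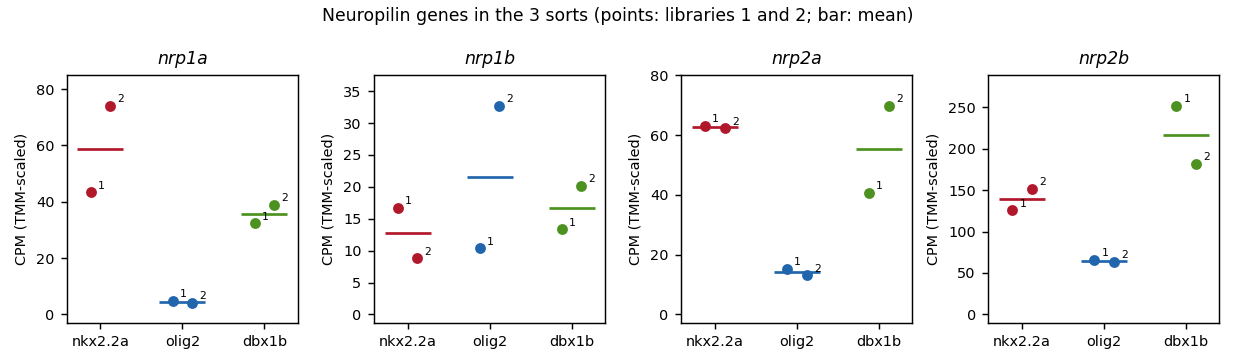
TMM-scaled CPM of the 4 neuropilin genes, with a point for each of libraries 1 and 2 of a sort and a bar at their mean. The olig2 points are the lowest for nrp1a (4.87 and 4.03 CPM), nrp2a and nrp2b, and lie among or above the others for nrp1b (10.3 and 32.7 CPM).

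Levels of other lists differed between the sorts as well. Notochord markers (7 of 9 in the files) summed to 396 and 446 CPM in the nkx2.2a libraries, 130 and 135 CPM in the olig2 libraries and 231 and 321 CPM in the dbx1b libraries. In the olig2 sort 1 notochord marker was at 0. Neuron markers (8 of 8 in the files, none at 0 in any sort) summed to 1426 and 1354 CPM, 2262 and 2026 CPM, and 1414 and 1270 CPM in the same order. Single genes, looked for after the values had been seen, carried much of these gaps. Without ta, the notochord sums were 376 and 441 CPM for nkx2.2a, 122 and 86.5 CPM for olig2, and 87.7 and 85.4 CPM for dbx1b, so dbx1b was no longer above olig2. Nor was it for the floor plate list without sulf1 and col2a1a, at 674 and 765 CPM, 317 and 235 CPM, and 97.2 and 214 CPM. Without elavl3, the neuron sums were 715 and 926 CPM for nkx2.2a, 884 and 800 CPM for olig2, and 958 and 911 CPM for dbx1b. The olig2 libraries then lay below the dbx1b libraries, and nkx2.2a overlapped both. Most of each remaining sum was tubb5 alone, at 639 and 812 CPM, 739 and 665 CPM, and 833 and 790 CPM in the same order. Of all 8 neuron markers, both olig2 libraries lay above all others in 2 (8.17% of all symbols). Both dbx1b libraries did so in 1 (1915 of the 19129 symbols). In both of the other lists the nkx2.2a libraries stayed the highest. The part of these cell types in the neuropilin levels was not tested, and in sorted pools fewer cells of a type and less RNA per cell cannot be told apart.

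Plexins of the A type are the signalling partners of neuropilins. Per length, plxna3 had the highest mean over the 6 libraries of the 3 A-type genes within the symbol rule (17.3 FPKM, against 16.4 FPKM for plxna1b). Of these genes, plxna1b was ahead in nkx2.2a (15.3 against 13.5 FPKM) and dbx1b cells (17.9 against 17.2 FPKM). Transcripts of plxna3 were at 87.2 and 46.6 CPM in the nkx2.2a libraries, 124 and 86.8 CPM in the olig2 libraries and 103 and 78.6 CPM in the dbx1b libraries, and all sorts overlapped. Its intervals allowed log2 differences of -1.79 to 0.49 in nkx2.2a over olig2 cells and of -0.92 to 1.35 in olig2 over dbx1b cells. The level of plxna1b in olig2 cells was 26.2 CPM in library 1 and 160 CPM in library 2, a spread that enclosed the 4 other libraries (82.0 to 123 CPM). The gene plxna4 was sparse, with 12 fragments in the nkx2.2a sort, none in the olig2 sort and 39 in the dbx1b sort. Set against a floor of 3 fragments over the sort, it was at least 3.11-fold higher in nkx2.2a cells than in olig2 and at least 7.71-fold lower in olig2 than in dbx1b cells (edgeR unadjusted p = 0.0361 and 0.0235, adjusted p = 0.561 and 0.491). These bounds take the fragments of the nkx2.2a and dbx1b sorts as exact.

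A further A-type plexin was outside the symbol rule. The transcript listed as si:dkey-164k14.1, which the current RefSeq table names plxna2, was at 109 and 145 CPM in the nkx2.2a libraries, 17.0 and 22.5 CPM in the olig2 libraries and 49.7 and 47.5 CPM in the dbx1b libraries. The 3 sorts did not overlap. Per length, si:dkey-164k14.1 was at 17.2 and 19.5 FPKM in the nkx2.2a libraries, both above the nkx2.2a mean of plxna1b (15.3 FPKM). In the olig2 and dbx1b libraries it was at 2.51 and 3.33 FPKM, and 6.83 and 7.10 FPKM. The log2 fold change of si:dkey-164k14.1 was 2.68 ± 0.53 in nkx2.2a over olig2 cells (edgeR unadjusted p = 0.000644, adjusted p = 0.376), 1.38 ± 0.51 in nkx2.2a over dbx1b cells (unadjusted p = 0.0228, adjusted p = 0.784) and -1.30 ± 0.51 for olig2 over dbx1b cells (unadjusted p = 0.0307, adjusted p = 0.501). It is 1 of 7 listed names whose transcripts now carry a family symbol, and it was singled out after its values had been seen. In 2 of the 7 both olig2 libraries lay below all others (11.5% of all symbols) and in 0 above (8.17%). The other of these, LOC795761 (now plxna1a), was at 27.8 and 47.5 CPM, 11.0 and 18.7 CPM, and 29.9 and 31.1 CPM in the nkx2.2a, olig2 and dbx1b libraries. In contrast, si:ch211-106g4.2 (now sema3b) was at 38.5 and 4.84 CPM, 51.1 and 48.1 CPM, and 71.3 and 26.1 CPM, with the dbx1b range enclosing the olig2 libraries and overlapping nkx2.2a. The levels of LOC100000009 (now sema5bb) were 37.7 and 51.7 CPM, 13.4 and 42.7 CPM, and 22.2 and 11.8 CPM, with olig2 overlapping both other sorts.

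Plexins of the B type are receptors for class 4 semaphorins. The most abundant member, plxnb1b, was at 498 and 469 CPM in the nkx2.2a libraries, 306 and 296 CPM in the olig2 libraries and 343 and 383 CPM in the dbx1b libraries. The sorts did not overlap, but the differences were small: 0.69 ± 0.31 in nkx2.2a over olig2 cells (edgeR unadjusted p = 0.0532, adjusted p = 0.576, interval -0.01 to 1.38) and 0.42 ± 0.31 in nkx2.2a over dbx1b cells (interval -0.28 to 1.11). Its paralog plxnb1a made up 9.49% to 23.4% of the FPKM of the pair. The gene plxnb2b was at 8.37 and 1.81 CPM in the nkx2.2a libraries, 1.52 and 46.9 CPM in the olig2 libraries and 0.540 and 0.564 CPM in the dbx1b libraries. One olig2 library thus carried nearly all of its reads in that sort. Its difference in olig2 over dbx1b cells, 5.42 ± 1.85 (unadjusted p = 0.0162, adjusted p = 0.470), was the only one of the 11 that was positive, and it was 1.42 without olig2 library 2.

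The vascular plexin gene plxnd1 encodes a receptor that in mice binds Sema3E without a neuropilin. Its transcripts were at 18.9 and 168 CPM in the nkx2.2a libraries, 19.8 and 10.7 CPM in the olig2 libraries and 9.18 and 11.1 CPM in the dbx1b libraries. The value of 168 CPM in nkx2.2a library 2 stood apart, and nkx2.2a library 1 lay within the range of the olig2 libraries. Its log2 fold change was 2.62 ± 0.98 in nkx2.2a over olig2 cells (edgeR unadjusted p = 0.0251, adjusted p = 0.554) and 3.20 ± 1.00 for nkx2.2a over dbx1b cells (unadjusted p = 0.0107, adjusted p = 0.667). Without nkx2.2a library 2 these were 0.33 and 0.89. Endothelial markers (11 of 11 in the files, 1 at 0 in the olig2 sort) summed to 76.3 and 102 CPM in the nkx2.2a libraries, 110 and 282 CPM in the olig2 libraries and 66.1 and 90.3 CPM in the dbx1b libraries. Among these markers, cdh5 was at 11.1 and 0.907 CPM, at 0 in both, and at 0 and 2.96 CPM in the same order. Other markers ran the other way. Both olig2 libraries lay above all others in 4 of the 11, namely fli1a, fli1b, etv2 and tek (8.17% of all symbols). They lay below all others in 0 (11.5%). In nkx2.2a library 2, where plxnd1 was high, 4 of the 11 markers were above library 1 and 7 were below it. The widest gaps up were in lmo2 (44.8 against 5.05 CPM) and kdrl (28.4 against 11.8 CPM), and the widest down in cdh5 and egfl7 (0 against 8.05 CPM). The part of endothelial cells in the plxnd1 level was not tested.

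The ortholog of its mouse ligand, sema3e, was lowest in both nkx2.2a libraries, while plxnd1 was high only in nkx2.2a library 2. Transcripts of sema3e were at 1.11 and 0 CPM in the nkx2.2a libraries, 13.4 and 20.4 CPM in the olig2 libraries and 16.9 and 5.21 CPM in the dbx1b libraries. The nkx2.2a libraries lay below all others, the only member for which this held (background 6.46%). The difference was -4.83 ± 1.73 in nkx2.2a over olig2 cells (edgeR unadjusted p = 0.0207, adjusted p = 0.554) and -4.22 ± 1.69 for nkx2.2a over dbx1b cells (unadjusted p = 0.0331, adjusted p = 0.784). All 7 sema3e fragments of the nkx2.2a sort were in its library 1, and without its library 2 the values were -3.91 and -3.32.

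Of the other secreted class 3 ligands, sema3d was the most abundant, a gene known in zebrafish for guiding axons and neural crest cells. It was at 30.6 and 79.5 CPM in the nkx2.2a libraries, 0.304 and 9.72 CPM in the olig2 libraries and 42.5 and 49.2 CPM in the dbx1b libraries, so the olig2 libraries were lowest. The log2 fold change was 3.44 ± 1.24 in nkx2.2a over olig2 cells (edgeR unadjusted p = 0.0212, adjusted p = 0.554) and -3.18 ± 1.23 for olig2 over dbx1b cells (unadjusted p = 0.0287, adjusted p = 0.499). The size depended on olig2 library 2: without it the values were 7.45 and -7.20, and without olig2 library 1 they were 2.49 and -2.25.

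The gene sema3aa is an ortholog of Sema3A, a repellent that in mammals acts mainly through neuropilin-1. It was at 72.5 and 24.5 CPM in the nkx2.2a libraries, 4.56 and 18.3 CPM in the olig2 libraries and 48.3 and 32.4 CPM in the dbx1b libraries. The olig2 libraries were lowest, by 2.08 ± 0.90 on the log2 scale in nkx2.2a over olig2 cells (edgeR unadjusted p = 0.0450, adjusted p = 0.566). The value was 1.09 without nkx2.2a library 1 and 3.42 without olig2 library 2. The paralogs sema3fa and sema3fb are related to Sema3F, which in mammals prefers neuropilin-2. Of their summed FPKM, sema3fa made up 40.8% and 98.6% for nkx2.2a, 7.41% and 57.2% for olig2, and 4.64% and 19.5% for dbx1b. The share thus varied widely between libraries of the same sort. Transcripts of sema3fa were at 13.6 and 138 CPM in the nkx2.2a libraries, 0.609 and 0.948 CPM in the olig2 libraries and 0.900 and 16.1 CPM in the dbx1b libraries. Those of sema3fb were at 18.2 and 1.81 CPM, 6.39 and 0.711 CPM, and 24.3 and 69.6 CPM in the same order.

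For sema3fa the nkx2.2a libraries lay above the olig2 libraries and overlapped those of dbx1b, while for sema3fb the dbx1b libraries lay above all others. The log2 fold change of sema3fa in nkx2.2a over olig2 cells was 6.57 ± 1.69 (edgeR unadjusted p = 0.00347, adjusted p = 0.518), and 4.11 without nkx2.2a library 2. In olig2 over dbx1b cells it was -3.42 ± 1.49 (unadjusted p = 0.0469, adjusted p = 0.523), and -0.18 without dbx1b library 2. That of sema3fb in olig2 over dbx1b cells was -3.73 ± 1.44 (unadjusted p = 0.0286, adjusted p = 0.498), and between -6.03 without olig2 library 1 and -2.77 without dbx1b library 2. Last in this class, sema3c had 1 fragment in the nkx2.2a sort, 6 in the olig2 sort and 94 in the dbx1b sort. The ratio of nkx2.2a to dbx1b cells was 0.0140 (95% counting interval 0.000350 to 0.0797; edgeR unadjusted p = 0.0351, adjusted p = 0.784).

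Class 5 semaphorins are transmembrane proteins with thrombospondin repeats. The gene sema5a had nearly all of its reads in the dbx1b sort, at 0.474 and 0.302 CPM in the nkx2.2a libraries, 0 in both olig2 libraries and 19.8 and 24.0 CPM in the dbx1b libraries. It had 4, 0 and 280 fragments in the 3 sorts. Its log2 fold change was -5.75 ± 1.58 in nkx2.2a over dbx1b cells (edgeR unadjusted p = 0.00615, adjusted p = 0.594). In olig2 over dbx1b cells it was at least 55.4-fold lower, against 3 fragments over the sort (unadjusted p = 0.000984, adjusted p = 0.315). DESeq2 called both differences of sema5a (adjusted p = 0.00301 and 8.8e-05), and the adjusted p over all edgeR, limma and DESeq2 alternatives ran from 0.00301 to 1 and from 8.8e-05 to 0.740. In nkx2.2a over olig2 cells, 4 fragments stood against 0, only 1.04-fold above the floor of 3 fragments (edgeR unadjusted p = 0.0400, adjusted p = 0.565). That ratio takes the 4 fragments as exact, so the order of these 2 sorts is unresolved for sema5a. The presomitic mesoderm and tailbud marker sum was also highest in the dbx1b libraries (2188 and 1890 CPM), as was the dbx1b reporter gene itself. Both dbx1b libraries lay above all others in 7 of its 8 markers (1915 of the 19129 symbols), but not in cdx4. The part of presomitic mesoderm and tailbud cells in the sema5a level was not tested. The other class 5 gene, sema5ba, was at 22.4 and 47.2 CPM, 10.7 and 6.87 CPM, and 54.2 and 24.4 CPM in the nkx2.2a, olig2 and dbx1b libraries. Its olig2 libraries were the lowest, by 1.99 ± 0.83 in nkx2.2a over olig2 cells (unadjusted p = 0.0396, adjusted p = 0.563) and -2.16 ± 0.84 for olig2 over dbx1b cells (unadjusted p = 0.0285, adjusted p = 0.498). These were 1.37 without nkx2.2a library 2 and -1.50 without dbx1b library 1.

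Class 6 semaphorins are transmembrane ligands of A-type plexins in mice. The current RefSeq table renames 3 of them: the symbol sema6dl is now sema6d, sema6d is now sema6ca, and sema6e is now sema6cb. The symbols below are those of the files. The most abundant ligand of the family, sema6dl, was at 139 and 132 CPM in the nkx2.2a libraries, 73.9 and 316 CPM in the olig2 libraries and 142 and 121 CPM in the dbx1b libraries, and no comparison passed an unadjusted p of 0.05. The spread between the olig2 libraries enclosed all others. The gene sema6e was at 21.5 and 10.9 CPM in the nkx2.2a libraries, 0 in both olig2 libraries and 5.94 and 4.09 CPM in the dbx1b libraries, with 172, 0 and 62 fragments. None of the sorts overlapped. The level of sema6e was at least 44.6-fold higher in nkx2.2a cells than in olig2 and at least 12.3-fold lower in olig2 than in dbx1b cells, against 3 fragments over the olig2 sort (edgeR unadjusted p = 0.00145 and 0.00350, adjusted p = 0.487 and 0.396; DESeq2 adjusted p = 0.000292 and 0.00494).

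Transcripts of sema6d were at 28.3 and 124 CPM in the nkx2.2a libraries, 20.7 and 19.9 CPM in the olig2 libraries and 18.0 and 16.5 CPM in the dbx1b libraries. Both nkx2.2a libraries lay above all others, though library 1 only slightly. For sema6d it came to a log2 fold change of 1.90 ± 0.80 in nkx2.2a over olig2 cells (edgeR unadjusted p = 0.0400, adjusted p = 0.565) and 2.14 ± 0.80 for nkx2.2a over dbx1b cells (unadjusted p = 0.0253, adjusted p = 0.784), and 0.49 and 0.71 without nkx2.2a library 2. That library was thus the high one for sema3fa, sema6d and plxnd1 alike. Hatching gland markers (4 of 4 in the files, none at 0 in any sort) summed to 998 and 611 CPM in the nkx2.2a libraries, 28.6 and 106 CPM in the olig2 libraries and 72.0 and 95.1 CPM in the dbx1b libraries. Somite and muscle markers (8 of 8 in the files, 1 at 0 in each sort) summed to 976 and 220 CPM, 196 and 134 CPM, and 140 and 101 CPM in the same order. Both sums peaked in nkx2.2a library 1. Most of the somite and muscle sum there was actc1a and actc1b, at 721 and 192 CPM. The markers myod1, myog and mylpfa also peaked there, but myf5 and meox1 peaked in dbx1b library 1 and tnnt3a in olig2 library 2. Of these 8 markers, 1 had both nkx2.2a libraries above all others (8.16% of all symbols). Epidermal markers (9 of 9 in the files, 1 at 0 in the nkx2.2a sort) summed to 1725 and 1895 CPM, 1158 and 935 CPM, and 842 and 617 CPM. Their part in the levels of members high in nkx2.2a cells was not tested.

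**Figure D5:**
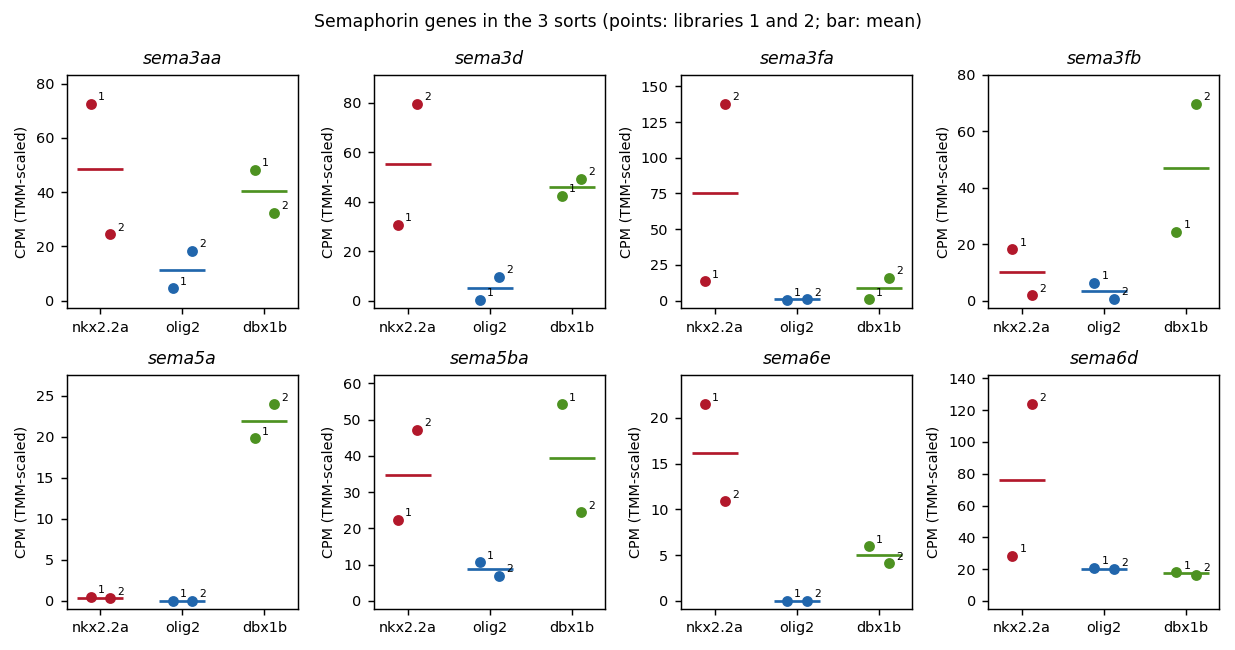
TMM-scaled CPM of 8 semaphorin genes, with a point for each of libraries 1 and 2 of a sort and a bar at their mean. The olig2 points are lowest for sema3aa, sema3d, sema5ba and sema6e. For sema5a they are at 0, close to the nkx2.2a points (0.474 and 0.302 CPM), and only the dbx1b libraries are high (19.8 and 24.0 CPM). Library 2 of nkx2.2a is far above library 1 for sema3fa (138 against 13.6 CPM) and sema6d.

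Class 4 semaphorins, ligands of B-type plexins, gave no difference at an unadjusted p under 0.05. The most abundant per length, sema4c (5.79 FPKM over the 6 libraries, against 4.92 FPKM for sema4ab), was at 32.5 and 40.2 CPM in the nkx2.2a libraries, 14.3 and 14.9 CPM in the olig2 libraries and 22.5 and 34.0 CPM in the dbx1b libraries. Its olig2 libraries were the lowest, and the intervals allowed log2 differences of -0.35 to 2.98 in nkx2.2a over olig2 cells and of -2.60 to 0.70 in olig2 over dbx1b cells. The gene sema4g was at 5.21 and 0.605 CPM in the nkx2.2a libraries, 0 in both olig2 libraries, and 0 and 1.55 CPM in the dbx1b libraries (35, 0 and 11 fragments).

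Partners of the system were read from a list of 78 genes: CRMP and MICAL effectors, small GTPases and kinases inside the cell, co-receptors, and VEGF ligands and receptors. Of these, 62 were in the files and 54 were tested. None passed edgeR's test over all genes. At an unadjusted p under 0.05, 3 were higher and 0 lower in nkx2.2a over olig2 cells (5.56% against 8.75% of all symbols), 3 higher and 2 lower in nkx2.2a over dbx1b cells (9.26% against 6.27%), and 2 higher and 4 lower in olig2 over dbx1b cells (11.1% against 9.53%). These shares were near the background. The median log2 fold change of the partners was 0.18, -0.09 and -0.29 in the same order.

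Among them was vegfaa, which encodes a VEGF ligand that binds neuropilins, at 65.7 and 56.9 CPM in the nkx2.2a libraries, 0.304 and 4.50 CPM in the olig2 libraries and 10.3 and 6.20 CPM in the dbx1b libraries. The nkx2.2a libraries were far above the rest, by 4.65 ± 1.22 over olig2 cells (edgeR unadjusted p = 0.00403, adjusted p = 0.518) and 2.89 ± 1.12 over dbx1b cells (unadjusted p = 0.0290, adjusted p = 0.784). The GTPase gene rras, whose mammalian product is switched off by plexins, was at 172 and 151 CPM, 58.1 and 91.5 CPM, and 96.9 and 124 CPM in the nkx2.2a, olig2 and dbx1b libraries. Its relative rras2 was at 32.7 and 6.96 CPM, 1.22 and 3.32 CPM, and 48.1 and 27.1 CPM, with a log2 fold change of -4.03 ± 1.15 in olig2 over dbx1b cells (unadjusted p = 0.00638, adjusted p = 0.450). Both genes were lowest in the olig2 libraries. The rho-type GTPase gene rac1b was at 54.2 and 12.1 CPM in the nkx2.2a libraries, 4.56 and 15.2 CPM in the olig2 libraries and 43.6 and 64.6 CPM in the dbx1b libraries, so nkx2.2a overlapped with olig2. The gene rnd3b, of the same GTPase family, had no read in the nkx2.2a libraries, 0.304 and 0 CPM in the olig2 libraries, and 11.7 and 7.75 CPM in the dbx1b libraries.

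Of the 54 partners tested, both nkx2.2a libraries lay below all others in 1 and above in 9, both olig2 libraries below in 9 and above in 3, and both dbx1b libraries below in 5 and above in 6. Of all 19129 symbols tested, the shares were 6.46% and 8.16% for nkx2.2a, 11.5% and 8.17% for olig2, and 7.35% (below) for dbx1b, with 1915 symbols above. Of the 11 partners set apart in dbx1b, those at an unadjusted p under 0.05 were rnd3b, given above, and 3 others. The CRMP gene dpysl5a was at 92.9 and 112 CPM in the nkx2.2a libraries, 91.0 and 72.5 CPM in the olig2 libraries and 41.6 and 31.1 CPM in the dbx1b libraries. The adhesion gene chl1a, of the L1 type, was at 105 and 127 CPM, 152 and 101 CPM, and 57.3 and 23.7 CPM in the same order. The pseudokinase gene ptk7a, known for planar cell polarity, ran the other way, at 38.5 and 31.8 CPM, 56.3 and 24.4 CPM, and 160 and 112 CPM. The adjusted p of edgeR was 0.710, 0.770 and 0.622 in nkx2.2a over dbx1b cells.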

How the data were processed

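The deposited counts, per the file layout, are mapped reads per RefSeq transcript, not normalised by the authors. All are even, so both mates of a fragment were counted. Tools in the submitters' processing notes are Bowtie 1.1.1 and FastQC 0.11.3, and the build is GRCz10; their roles are not stated. The deposited FPKM values equal those recomputed from the counts (326622 of 326622 within a relative 1e-06). The authors' table of ratios was not used: in 1151 of 54437 rows its means belong to the named transcript. Unmapped reads (66.6% to 80.6%) stayed out.

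Counts were summed per symbol, since variants of a gene shared reads. Close paralogs are uncertain, since the assignment of reads with several matches is not stated in the labels, and strand was not considered. The current RefSeq table (GRCz12tu) was used for names only: matched by symbol, 40 of 42 members were found, 37 under the same symbol. Matched by transcript instead, sema6d, which is among the 37, is now sema6ca, and sema4g, not found by symbol, is now sema4gb. Symbols that passed filterByExpr (minimum count 10; 39 members) were fitted in edgeR 4.0.16 (R 4.3.3) with TMM scaling, fitting all 6 libraries with a mean for each sort (3 residual degrees of freedom, common dispersion 0.779). P-values were adjusted by Benjamini-Hochberg over 19129 symbols. Standard errors come from the F statistic. The fitting step was tested on simulated data, with its pass mark set only at a dispersion far below the 0.779 found here. That test therefore does not show the power to call a gene in these data. Alternatives included RLE or no scaling, DESeq2 1.42.0, limma 3.58.1, other filters, the replicate number as a block, fewer libraries and, added after seeing the data, counts halved to fragments the count of members lowest in olig2 cells, and marker sums without single genes. A chi-square of 39.6 to 45.4 per degree of freedom between libraries of a sort, far above sampling noise, left none as a duplicate. Floors cover only the counting error of the sort with no read, since the fragments of the other sort are taken as exact. Counting intervals cover counting error only.

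Members and lists were chosen with earlier results of these data known. Values in every library were given by a fixed rule for each neuropilin, the most abundant member of each subfamily and each other member at an unadjusted p under 0.05 (23 genes). Named beyond this rule were plxna1b, plxnb1a, sema4ab, sema4g, sema4ga, si:dkey-164k14.1, LOC795761, si:ch211-106g4.2 and LOC100000009, after their values had been seen.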

Additional observations from a re-analysis of the deposited data

How the results depend on the processing

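The counts of members past the adjusted threshold, 0 in each comparison by edgeR, were 5, 2 and 6 with DESeq2 (of all symbols 578, 375 and 716 of 19129) and 4, 1 and 1 with no filter beyond 1 count (233, 238 and 292 of 27024), in the order nkx2.2a over olig2, then over dbx1b, then olig2 over dbx1b. They were 0 in every fit that left out a library and under every other alternative run. At an unadjusted p under 0.05, the 13 members in nkx2.2a over olig2 became 8 when only the 4 libraries compared were fitted (all symbols 1673, and 1095 of 16545) and ranged from 6 to 15 with a library left out (all symbols 1072 to 2430), lowest without nkx2.2a library 2. The 5 in nkx2.2a over dbx1b became 8 with DESeq2 and 8 with no filter (all symbols 1200, 1902 and 1806) and ranged from 2 to 7 (508 to 2294), lowest without dbx1b library 1. The 11 in olig2 over dbx1b ranged from 6 to 12 (all symbols 1823, and 821 to 2448), the members' lowest without dbx1b library 2. The cause was not tested. The number of members lowest in both olig2 libraries, 14, ranged from 14 to 19 with a library left out, where the share of all symbols was 13.5% to 25.0%. Leaving out a library with the CPM values kept can only hold or raise this count, so that range cannot show whether it is stable. With RLE or no scaling the count was 14 and 13.

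No pairing by replicate number showed in the values: deviations of same-numbered libraries correlated at 0.02, -0.01 and 0.02 across genes. Such correlations cannot show whether same-numbered libraries were prepared together. With the number as a block, 7 members and 1261 symbols were at an unadjusted p under 0.05 in nkx2.2a over olig2. The receptor share of the family sum, 51.6%, 55.3% and 54.0% on average in nkx2.2a, olig2 and dbx1b cells, was 42.0%, 46.2% and 46.3% without plxnb1b and 53.8%, 54.0% and 54.4% with the transcripts now carrying a family symbol. Single libraries gave 47.6% to 55.7%, 48.7% to 61.9% and 53.7% to 54.2%. Of 29 differences of named genes at an unadjusted p under 0.05, none changed sign under any alternative run and 9 kept that p under all of them. These include nrp1a in both comparisons with olig2 cells. The p was lost for 12 without nkx2.2a library 2 and for 12 without dbx1b library 2. With 2 libraries a sort and 3 to 7 M fragments, genes of a few fragments, such as sema3c or plxna4, are limited by depth.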
